A study of Mus musculus with 10 samples.

Results

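The genes that changed between day 5 and day 10 in MC3T3-E1 cells cultured with β-ecdysterone were examined over 6 of the 10 libraries of the series. β-Ecdysterone is a plant sterol, and MC3T3-E1 is an osteoblast precursor line derived from the mouse calvaria, although the labels name the source as bone marrow mesenchymal stem cells of newborn C57BL/6 mice. The members were all libraries labelled with a dose above 0 μM, namely 100, 150 and 200 μM, with 1 library per dose on day 5 and 1 per dose on day 10, and each gene of the table was compared between the days with dose kept in the model. The 2 libraries at 0 μM, 1 per day, served as background, and their values are given for part of the genes. The 2 libraries labelled untreated without a time were not compared. All cells were grown in a standard medium, the treated and the 0 μM cells for the same number of days, so that time in culture and time in the drug cannot be told apart within the treated libraries. The labels do not say that the doses were separate cultures of 1 day. With dose in the model, p-values rest on how the day difference varied between these 3 doses, with 1 library per dose and day.

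Osteoblast precursors pass through an ordered course in culture. Dividing cells lay down a collagen matrix, leave the cell cycle, mature the matrix with proteoglycans and phosphatases, and then express the acidic and Gla-containing proteins of mineralised bone. The transcription factors Runx2 and osterix (Sp7) head this course, the parathyroid hormone receptor appears with maturation, and Wnt, IGF and FGF signals act along it.

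The treated libraries held between 27108562 and 58218009 counts. At 200 μM the day 5 library held 29637936 and the day 10 library 53666325 counts, while the other doses had like totals on both days. Levels are given as CPM, the count of a gene scaled to a common library size, in the order 100, 150 and 200 μM, and 3 counts stood for between 0.0495 and 0.117 CPM. Spearman correlations over genes lay between 0.988 and 0.993 for libraries of the same day and between 0.983 and 0.989 for libraries of different days. All 9 osteoblast markers were detected in the treated libraries, from Col1a1 at 5930 to 11400 CPM down to Bglap at 0.198 to 5.27 CPM. Of the markers of other cells, Adipoq did not exceed 0.197 CPM, Myod1 0.0382, Ptprc 0.223, Csf1r 0.466 and Acan 0.132 CPM. The adipocyte marker Fabp4 lay higher, between 1.4 and 3.93 CPM, as did the muscle marker Des, between 3.31 and 7.58 CPM. The cartilage marker Comp lay between 3.61 and 6.8 CPM. Some others were well expressed: the cartilage genes Sox9 and Col2a1 lay between 56.6 and 86 CPM and between 22.3 and 91.8 CPM, and Cd34 between 148 and 375 CPM, and their part in the results was not tested. The summed level of the 6 macrophage and osteoclast markers went from 141 to 158 CPM on day 5 to between 242 and 312 CPM on day 10, of which Ctsk, also made by osteoblasts, gave nearly all, while Cd68 stayed between 0.957 and 1.2 CPM.

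Of 16020 genes tested, 175 were higher on day 10 (1.09% of the genes tested) and 31 were lower (0.194%) in edgeR's quasi-likelihood test, where a call needed a change of more than 1 on the log2 scale together with a Benjamini-Hochberg adjusted p below 0.05. Of the genes called higher, 136 had a symbol and 39 were newly assembled loci without a name. The 31 lower genes comprised 23 with a symbol and 8 new loci. All 175 were higher on day 10 at all 3 doses, and in 165 of them every day 10 library stood above every day 5 library, an order that 12.4% of all genes tested showed. The days did not overlap for 29 of the 31 lower genes, against 10.5% of all genes. As the calls came from these same libraries, direction and order follow largely from the call and are not separate evidence. The median log2 fold change of the higher genes was 1.73, with medians of 1.61, 1.49 and 1.72 at 100, 150 and 200 μM. Between the 0 μM libraries the same genes had a median difference of -0.18, with 47 of them higher on day 10 and 104 lower. Over all 16020 genes tested, 7649 were higher and 8119 lower there. Some of the called genes had few counts at 0 μM, such as Slc36a2 with 4 and 4 and Wif1 with 10 and 5. Their direction at 0 μM is uncertain. Levels of most of the fallen genes were low: only 6 with a symbol reached a mean of 5 CPM, against 82 of the risen genes. With library totals in place of TMM factors, which moved the median of all genes by -0.129 on the log2 scale, 157 genes were called higher and 99 lower. Fewer cells of a kind and less RNA per cell cannot be told apart in these bulk libraries. The counts rested on the 200 μM pair of libraries: 64 higher and 5 lower genes remained without the day 5 library of that dose, and 70 and 8 without its day 10 library. Without the 150 μM library of day 5 there were 303 higher and 92 lower calls, and without that of day 10 286 and 99. With dose in the model, leaving out 1 library also took its same-dose partner out of the day difference. Here and below, such fits compared the days over the remaining doses and were not separate checks of each library.

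**Figure D1:**
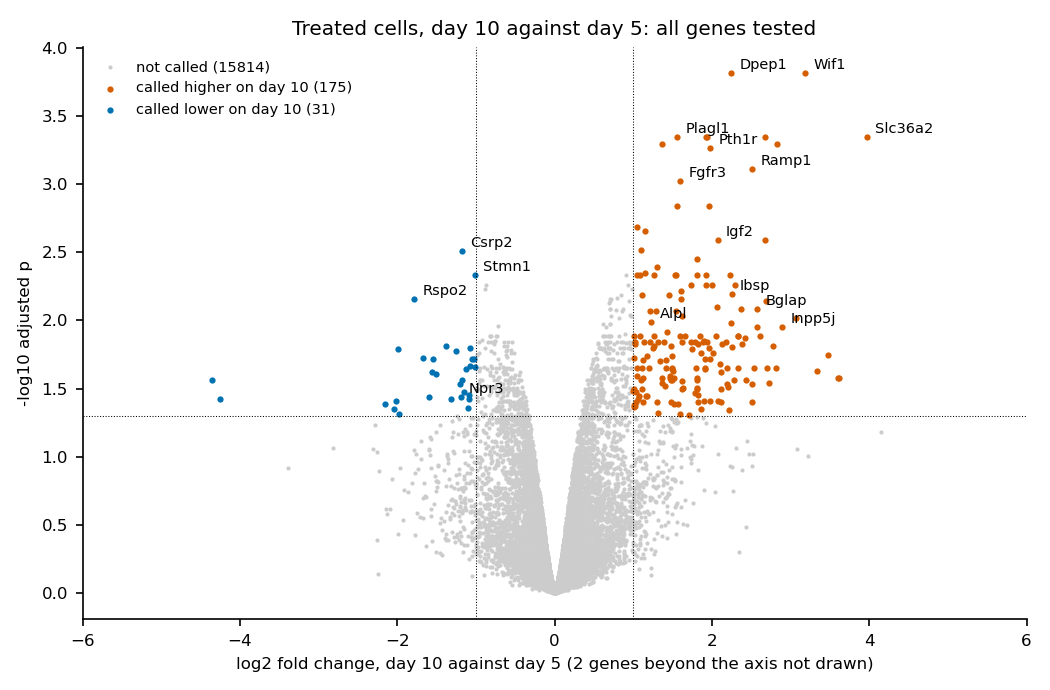
Log2 fold change from day 5 to day 10 over the 6 treated libraries (x axis) against -log10 of the adjusted p (y axis) for each of the 16020 genes tested, with the limits of the call as dotted lines and 2 genes beyond the x axis not drawn. The 175 risen genes in orange outnumber the 31 fallen genes in blue, and Wif1, Dpep1 and Slc36a2 stand at the upper right.

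The day difference of single genes was compared between doses. Over the 10741 tested genes with a mean of at least 5 CPM, the Pearson correlation of the log2 difference of the days was 0.33 between 100 and 150 μM, 0.56 between 100 and 200 μM and 0.51 between 150 and 200 μM. With the difference at 0 μM it was -0.14, -0.15 and -0.29 for the 3 doses. These are descriptions across genes, which are not independent replicates, and each difference comes from 1 pair of libraries. The SD of the difference over these genes was 0.414, 0.343 and 0.397 at the treated doses and 0.255 at 0 μM.

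Bone matrix genes were the list with the highest median of the fitted log2 fold changes. Of 18 members tested for bone matrix and mineralisation, 7 were called higher and none lower, against 1.09% and 0.194% of all genes tested. This fitted median was 0.87, beside 0.00 over all genes tested. On log2 CPM the list's median day difference was 0.56, 0.56 and 0.83 at 100, 150 and 200 μM and -0.18 at 0 μM. The mitochondrially encoded mRNAs had a fitted median of 0.80, and 0.83, 0.91 and 0.67 at the 3 doses. Ibsp, which encodes bone sialoprotein (chr5:104299171-104311469, + strand, GRCm38), stood at 72.8, 230 and 95.8 CPM on day 5 and at 272, 802 and 798 CPM on day 10. Every day 10 library was above every day 5 library, and the 150 and 200 μM libraries reached the same level from different starting points. Its log2 fold change was 2.25 (SE 0.24; edgeR adjusted p = 0.0064), while the 0 μM libraries held 0.667 and 0.850 CPM. Alpl, the tissue-nonspecific alkaline phosphatase that frees phosphate for mineral (chr4:137741733-137796384, − strand), rose from 16.0, 29.3 and 33.1 CPM to 51.9, 64.4 and 60.9 CPM, a log2 fold change of 1.23 (SE 0.15; edgeR adjusted p = 0.010). Its 3 doses lay closer together on day 10 than on day 5. Omd, which encodes the keratan sulphate proteoglycan osteomodulin of bone, had 19.1, 36.7 and 17.5 CPM on day 5 and 80.4, 57.0 and 62.2 CPM on day 10. The 0 μM libraries of days 5 and 10 held 0 and 0.063 CPM of Alpl and 1.35 and 2.02 CPM of Omd.

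Among genes of the latest stage, Bglap, Bglap2, Phex and Mepe were called higher from low levels. Bglap, osteocalcin, had 0.198, 0.775 and 0.491 CPM on day 5 and 0.700, 5.27 and 3.29 CPM on day 10, so that the 100 μM library of day 10 lay within the range of day 5 and the others above it. Its log2 fold change was 2.57 (SE 0.29; edgeR adjusted p = 0.0082). The neighbouring copy Bglap2 followed the same order, from 0.495, 0.808 and 0.688 CPM to 0.817, 5.55 and 4.66 CPM. The copies are nearly identical and how reads were shared between them is not given in the sources used here, so their single values are uncertain. Phex, an endopeptidase of osteoblasts and osteocytes that controls phosphate, stood at 4.35, 6.14 and 4.68 CPM on day 5 and at 5.56, 23.0 and 20.3 CPM on day 10, again with the 100 μM library inside the day 5 range. Mepe, an osteocyte matrix phosphoglycoprotein, went from 0.165, 0.528 and 0.262 CPM to 0.856, 1.71 and 1.82 CPM. Dmp1, another osteocyte protein of the same family, had 0.297, 0.775 and 0.262 CPM on day 5 and 0.389, 1.02 and 1.72 CPM on day 10 and was not called (edgeR adjusted p = 0.26). On days 5 and 10 at 0 μM, Bglap had 0.471 and 0.22 CPM, Bglap2 1.28 and 0.819, Phex 5.69 and 5.04 and Mepe 0 and 0.0945 CPM. Bglap and Phex at 0 μM thus lay within the treated day 5 range, and Bglap2 above it. Of 12 osteocyte genes, 7 had a positive and 5 a negative log2 fold change, with a median of 0.10, and 3 were called higher, namely Mepe, Phex and the protease Mmp13, and Pdpn, which marks early osteocytes, was lower on adjusted p alone (log2 fold change -0.77). Without dose in the model Bglap, Bglap2 and Phex were not called (edgeR adjusted p = 0.071, 0.055 and 0.069). The calls of Bglap, Bglap2 and Phex were lost without either 200 μM library, with adjusted p of up to 0.059, 0.19 and 0.26, and that of Mepe also without the 100 μM library of day 10, with an adjusted p of up to 0.16. Omd lost its call without either 100 or either 200 μM library, with an adjusted p of up to 0.14.

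Other members passed on adjusted p alone, with changes under the fold limit. Over all genes 460 were higher (2.87%) and 241 lower (1.5%) by this rule. Among them Spp1, osteopontin, rose from 810, 1150 and 797 CPM to 1630, 1530 and 1370 CPM, a log2 fold change of 0.73 (SE 0.13; edgeR adjusted p = 0.027), towards the 1710 and 1720 CPM of the 0 μM libraries. Sparc, osteonectin, rose by 0.89 (SE 0.16; edgeR adjusted p = 0.030) and Smpd3, a sphingomyelinase needed for bone mineral, by 0.74 (SE 0.13; edgeR adjusted p = 0.027). Mgp, which encodes an inhibitor of calcification, was the single member lower by this rule, from 2260, 1880 and 2730 CPM to 1480, 1470 and 1270 CPM, with a log2 fold change of -0.69 (SE 0.15; edgeR adjusted p = 0.049).

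The other genes that the study measured for its pathway moved less. Sp7 had 52.2, 55.4 and 61.1 CPM on day 5 and 68.8, 133 and 114 CPM on day 10, with no overlap of the days and a log2 fold change of 0.86 (SE 0.15; edgeR adjusted p = 0.025), under the fold limit. Runx2 had 198, 188 and 210 CPM on day 5 and 216, 250 and 260 CPM on day 10, and its log2 fold change of 0.28 (SE 0.09) did not pass (edgeR adjusted p = 0.12). Col1a1, the main chain of type I collagen, spread from 5930 to 9890 CPM on day 5 and from 8790 to 11400 CPM on day 10, and its log2 fold change was 0.28 (SE 0.21; edgeR adjusted p = 0.50). On days 5 and 10 the 0 μM libraries held 6.03 and 5.01 CPM of Sp7, 93.6 and 87.7 of Runx2 and 8330 and 10300 of Col1a1. The Smad transducers of BMP signals, Smad1, Smad5, Smad9 and Smad4, had log2 fold changes between -0.13 and 0.12 with SEs from 0.08 to 0.15 and were not called. Bmp2 had 0 counts in all 6 treated libraries, which allows up to 0.117 CPM in the shallowest of them. Of the 16 osteoblast transcription factors tested, 0 were called and 2, Sp7 and Msx1, passed on adjusted p alone. Msx1, a homeobox gene of the skull, rose by 0.80 on the log2 scale (SE 0.15; edgeR adjusted p = 0.031).

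**Figure D2:**
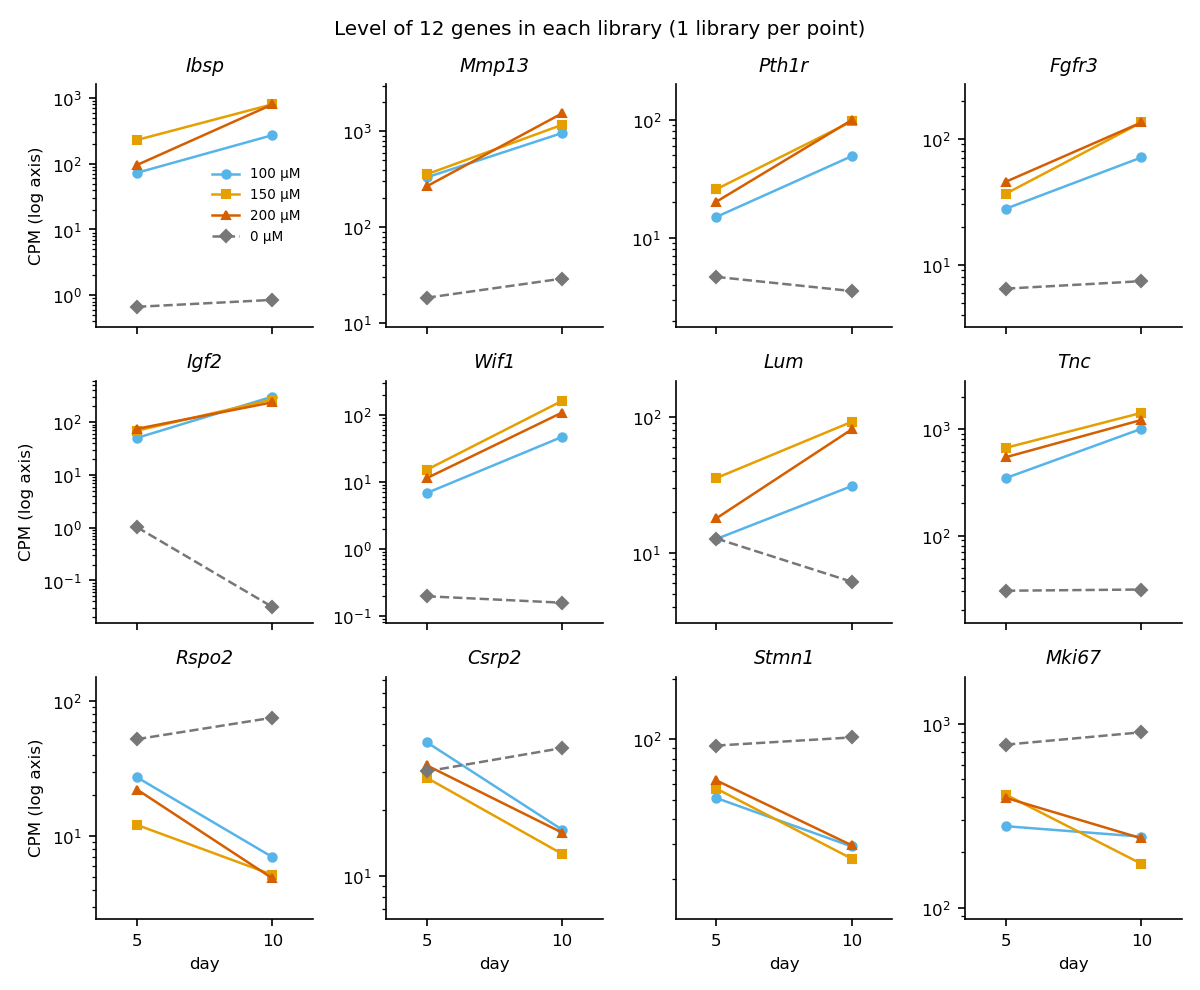
Level of 12 genes in each library, in CPM on a log axis, on days 5 and 10; each point is 1 library, solid lines join the 2 days of a treated dose and the dashed grey line joins the 0 μM libraries. The treated lines of the first 8 genes go up and those of the last 4 go down, whereas the 0 μM line of Ibsp stays between 0.667 and 0.850 CPM and that of Rspo2 goes from 52.1 to 75.1 CPM.

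Several proteins of the matrix around the collagen fibres rose. Of 25 proteoglycans and matricellular proteins tested, 5 were called higher, 10 were higher on adjusted p and 0 were lower by either rule, although Nov, a matricellular gene called lower, was not in the list. Over all genes 1.09% were called higher and 2.87% were higher on adjusted p. The list had a median log2 fold change of 0.50 and medians of 0.52, 0.54 and 0.55 at the 3 doses. At 0 μM its median difference was 0.16, with 18 members higher on day 10 and 7 lower. Lum, lumican, rose from 12.7, 35.5 and 18 CPM to 31.0, 91.7 and 80.7 CPM (log2 fold change 1.61, SE 0.17; edgeR adjusted p = 0.0061), and the days overlapped between doses although each dose rose. Its call rested on dose being in the model, without which the adjusted p in edgeR was 0.082. At 0 μM lumican went from 12.8 to 6.17 CPM. Tnn, tenascin-W, which is made at sites of bone formation, rose from 188, 209 and 301 CPM to 711, 780 and 441 CPM (log2 fold change 1.46, SE 0.26; edgeR adjusted p = 0.026), least at 200 μM. Its call was lost without either 100 μM library, with an adjusted p of up to 0.082. The related Tnc, tenascin-C, rose from 346, 664 and 542 CPM to 1000, 1410 and 1210 CPM and Aspn, asporin, from 172, 266 and 130 CPM to 644, 373 and 451 CPM. Postn, periostin, the most abundant of the list, rose from between 15600 and 18400 CPM to between 26200 and 35900 CPM (log2 fold change 0.89, SE 0.15; edgeR adjusted p = 0.022), and its 0 μM libraries held 624 and 956 CPM.

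Among the 20 collagen genes of the list, whose median log2 fold change was 0.28, Col15a1, a basement membrane collagen, was the 1 called. The list's median difference at 0 μM was 0.15, with 13 members higher on day 10 and 7 lower. Outside the list, and named after its values were seen, Col6a5, a collagen VI chain, was also called, from between 0.891 and 0.983 CPM to between 2.61 and 4.03 CPM (log2 fold change 1.73, SE 0.24; edgeR adjusted p = 0.014). Col15a1 went from 3.76, 12.1 and 5.60 CPM to 24.1, 24.7 and 30.7 CPM, a log2 fold change of 2.01 (SE 0.30; edgeR adjusted p = 0.017), and lost the call without either 200 μM library, with an adjusted p of up to 0.10. Col3a1 passed on adjusted p with a log2 fold change of 0.60 (SE 0.12; edgeR adjusted p = 0.039). Of 24 genes for collagen processing none was called, 21 had a positive log2 fold change and 5 passed on adjusted p: Fkbp14, Pcolce, Pcolce2, P4ha2 and P3h1, with changes between 0.37 and 0.70. The median of the 24 was 0.21. At 0 μM their median difference was 0.13, with 18 higher on day 10 and 6 lower. Over all genes 2.87% were higher on adjusted p. Lox, the enzyme that crosslinks collagen, had a log2 fold change of -0.46 (SE 0.14; edgeR adjusted p = 0.10).

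Mmp13, collagenase 3, which osteoblasts release at sites of matrix turnover (chr9:7272514-7283331, + strand), was the called protease of the list, and Mmp8, outside it and named after its values were seen, was also called (log2 fold change 1.81, SE 0.32; edgeR adjusted p = 0.027). Mmp13 stood at 331, 356 and 267 CPM on day 5 and at 960, 1170 and 1540 CPM on day 10, with no overlap, and its log2 fold change was 1.93 (SE 0.19; edgeR adjusted p = 0.0046). The 0 μM libraries had 18.4 and 29.1 CPM. Of 19 matrix proteases and inhibitors, Timp4, an inhibitor, was the other called (log2 fold change 1.12, SE 0.20; edgeR adjusted p = 0.026); it lost its call without any 1 of the 6 libraries, with log2 fold changes from 0.98 to 1.24. Mmp2, gelatinase A, rose by 0.60 (SE 0.11; edgeR adjusted p = 0.032) and Adamts5, an aggrecanase, had a log2 fold change of -0.61 (SE 0.09; edgeR adjusted p = 0.019).

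The 250 bases before the start of Bglap and Mmp13 are shown because both genes rose and their windows hold the letters ACCACA, the core that Runx proteins bind. Capitals mark ACCACA or its complement TGTGGT and, in Mmp13, TGACTCA, a form of the AP-1 element; no other motif was searched and the 2 motifs do not overlap. The sequences are from RefSeq, GRCm38.p6, and run 5′ to 3′ along each gene's strand, with Bglap at chr3:88384467-88384716 (− strand) and Mmp13 at chr9:7272264-7272513 (+ strand).
Bglap: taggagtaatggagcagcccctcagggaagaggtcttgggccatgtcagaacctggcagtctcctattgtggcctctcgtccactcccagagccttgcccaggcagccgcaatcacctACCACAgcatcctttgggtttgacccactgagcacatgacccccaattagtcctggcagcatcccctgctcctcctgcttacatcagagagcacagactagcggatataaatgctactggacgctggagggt
Mmp13: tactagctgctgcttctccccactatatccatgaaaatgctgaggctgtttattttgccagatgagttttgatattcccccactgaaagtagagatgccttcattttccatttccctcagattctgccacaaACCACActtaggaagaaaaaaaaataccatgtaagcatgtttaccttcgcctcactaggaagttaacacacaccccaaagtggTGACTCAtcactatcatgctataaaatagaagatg
ACCACA began 132 bases before the start of Bglap and 118 bases before that of Mmp13, and TGACTCA began 35 bases before that of Mmp13. On both strands, 14.0% of all 32851 windows of this length held the Runx letters and 4.46% held TGAGTCA or TGACTCA. Of the genes called higher, 101 had a window, of which 18 (17.8%) held the Runx letters, against 13.2% of the 10536 tested genes with a window. Of the 7 called bone matrix genes 6 had a window, and 2 of these, Bglap and Mepe, held the Runx letters. A match is a run of letters and not a measured binding site.

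Genes of signalling pathways were among the largest rises. Wif1, a secreted inhibitor that binds Wnt proteins (chr10:121033960-121100650, + strand), stood at 6.83, 15.2 and 11.4 CPM on day 5 and at 47.2, 163 and 109 CPM on day 10. Each dose rose and the days did not overlap, and the log2 fold change was 3.18 (SE 0.13; edgeR adjusted p = 0.00015). The 0 μM libraries held 0.196 and 0.157 CPM. Rspo2, an R-spondin that strengthens Wnt signals (chr15:43020794-43170826, − strand), was the largest fall among genes with a symbol and at least 5 CPM, from 27.2, 12.1 and 22.1 CPM to 7, 5.18 and 4.87 CPM (log2 fold change -1.79, SE 0.19; edgeR adjusted p = 0.0070). At 0 μM it had 52.1 CPM on day 5 and 75.1 CPM on day 10. Sfrp2, another secreted Wnt modulator, passed on adjusted p alone with a log2 fold change of 0.98 (SE 0.10; edgeR adjusted p = 0.0058). Of the 9 secreted antagonists and R-spondins tested, 1 was called higher and 1 lower.

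Targets of Wnt signals did not share 1 direction. Of 13 tested, Tnfrsf19, a receptor of the TNF family, rose from 32.4, 86.8 and 75.0 CPM to 149, 220 and 184 CPM (log2 fold change 1.60, SE 0.17; edgeR adjusted p = 0.0070), and Rnf43, a ligase that removes Wnt receptors, rose from 7.55, 9.12 and 10.3 CPM to 22.0, 19.7 and 20.7 CPM (log2 fold change 1.22, SE 0.14; edgeR adjusted p = 0.0086). Axin2, the common readout of the pathway, had 59.1, 49.1 and 64.3 CPM on day 5 and 69.5, 41.6 and 52.8 CPM on day 10, a log2 fold change of -0.10 (SE 0.12; edgeR adjusted p = 0.68). Of the list, 7 members had a positive and 6 a negative log2 fold change.

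Pth1r, the receptor for parathyroid hormone (chr9:110722085-110747145, − strand), rose from 15.1, 25.9 and 20.3 CPM to 49.3, 97.1 and 99.7 CPM, with no overlap and a log2 fold change of 1.97 (SE 0.12; edgeR adjusted p = 0.00054). The 0 μM libraries held 4.69 and 3.56 CPM. It was the 1 called of 13 genes for PTH and osteoclast support, among which Tnfrsf11b, osteoprotegerin, passed on adjusted p alone (log2 fold change 0.43, SE 0.08; edgeR adjusted p = 0.029). Fgfr3, an FGF receptor of cartilage and bone, rose from 27.8, 36.6 and 45.5 CPM to 70.8, 134 and 134 CPM (log2 fold change 1.60, SE 0.11; edgeR adjusted p = 0.00095), while Fgfr1 and Fgfr2 had log2 fold changes of 0.40 and 0.13 and were not called. Igf2, a growth factor of the insulin family (chr7:142650766-142666816, − strand), rose from 50.2, 68.9 and 74.7 CPM to 304, 268 and 237 CPM (log2 fold change 2.07, SE 0.17; edgeR adjusted p = 0.0026). The highest dose was highest on day 5 and lowest on day 10. At 0 μM Igf2 had 1.02 CPM on day 5 and 0.0315 CPM on day 10. Igf1 and Igfbp6 passed on adjusted p alone, with log2 fold changes of 0.85 and 0.68. Of 11 BMP ligands and receptors and of 25 BMP transducers, antagonists and targets none was called, and in the second list Nbl1 was higher and Id4 lower on adjusted p alone (log2 fold changes 0.59 and -0.88).

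The largest rises outside these lists were of transporters, enzymes and membrane proteins. Slc36a2, a proton-coupled transporter of small amino acids, had the largest log2 fold change of the genes with a symbol and at least 5 CPM, 3.97 (SE 0.22; edgeR adjusted p = 0.00045), from 0.957, 6.75 and 3.11 CPM to 23.9, 70.6 and 61.9 CPM. Dpep1, a membrane dipeptidase, rose from 24.5, 32.0 and 26.7 CPM to 101, 156 and 141 CPM (log2 fold change 2.25, SE 0.09; edgeR adjusted p = 0.00015). Ramp1, which pairs with the calcitonin receptor-like receptor, rose from 3.13, 14.6 and 8.39 CPM to 23.3, 61.6 and 54.4 CPM. In Slc36a2 and Ramp1 the 100 μM library was the lowest on both days. Bpifb1, Btla, Srpx2, Cdh23 and Inpp5j rose by between 2.24 and 2.89 on the log2 scale, from below 8 CPM in every day 5 library. Of these, Bpifb1 had 0 counts in both 0 μM libraries. Inpp5j, a phosphoinositide phosphatase, and Cdh23, a cadherin, lost their calls when the day 5 library at 200 μM was left out, with adjusted p of 0.056 and 0.061. Kcnj15, a potassium channel, rose from 2.51, 8.53 and 4 CPM to 14.0, 22.4 and 21.6 CPM. Ttn, titin, rose from 2.21, 4.03 and 3.34 CPM to 6.85, 8.53 and 8.10 CPM. Of the muscle markers, Myod1 and Myog did not exceed 0.0931 CPM and Myh3 did not exceed 0.396 CPM. Ckm lay between 0.745 and 1.78 CPM and Des, at a level like that of titin, between 3.31 and 7.58 CPM. Titin lost its call without either 200 μM library, with an adjusted p of up to 0.093.

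Of 30 cell cycle genes tested, 11 were lower on day 10 on adjusted p alone, 0 passed the fold limit and 19 passed neither, while 29 had a negative log2 fold change. Over all 16020 genes tested, 1.5% were lower on adjusted p and 8040 had a negative log2 fold change. The list's median was -0.64. The medians at 100, 150 and 200 μM were -0.21, -0.96 and -0.66, and at 0 μM it was 0.11, with 24 of 30 members higher on day 10. Mki67, the proliferation marker Ki-67, had 277, 411 and 395 CPM on day 5 and 243, 173 and 238 CPM on day 10, without overlap but not past the threshold (edgeR adjusted p = 0.069). Aurkb, a kinase of the mitotic spindle, fell from 21.3, 30.4 and 32.1 CPM to 14.0, 16.5 and 18.6 CPM (log2 fold change -0.76, SE 0.10; edgeR adjusted p = 0.014), and Ccnb2, a mitotic cyclin, from 19.4, 24.4 and 26.3 CPM to 12.3, 10.1 and 15.7 CPM (log2 fold change -0.90, SE 0.14; edgeR adjusted p = 0.022). Levels of the treated libraries were below those at 0 μM on both days: the 30 genes summed to 1418, 2241 and 2072 CPM on day 5 and to 1221, 1120 and 1345 CPM on day 10, against 4182 and 4586 CPM at 0 μM. The lowest of the day 5 sums was that of 100 μM, the dose with the smallest day difference.

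All 30 DNA replication genes had a negative log2 fold change, with a median of -0.44, and 8 were lower on adjusted p alone, against 1.5% of all genes. Among these Mcm10, a replication initiation factor, had a log2 fold change of -0.70 (SE 0.13; edgeR adjusted p = 0.032) and Lig1, the DNA ligase of replication, -0.60 (SE 0.12; edgeR adjusted p = 0.039). Their median differences were -0.26, -0.35 and -0.65 at the 3 doses and 0.11 at 0 μM. Stmn1, stathmin, which destabilises microtubules and is high in dividing cells, was called lower, from 50.9, 56.7 and 62.3 CPM to 29.2, 25.4 and 29.6 CPM (log2 fold change -1.01, SE 0.10; edgeR adjusted p = 0.0046). Being close to the fold limit, its call was lost without either 150 or either 200 μM library, with log2 fold changes from -1.12 to -0.93 and an adjusted p of up to 0.038.

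**Figure D3:**
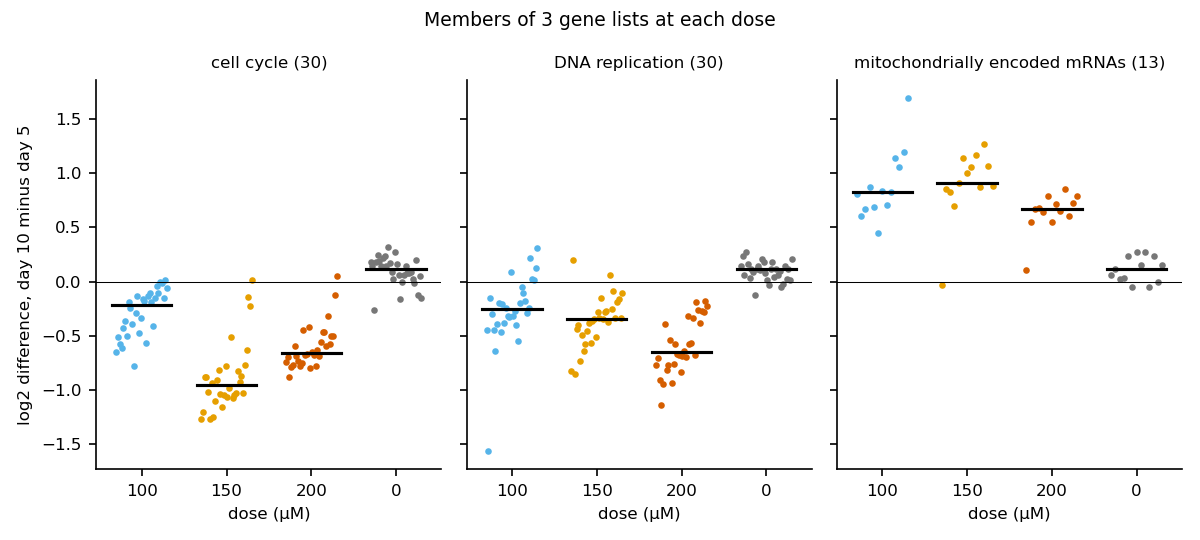
Log2 difference of day 10 minus day 5 for each member (point) of the cell cycle, DNA replication and mitochondrially encoded lists at 100, 150, 200 and 0 μM, each from 1 pair of libraries, with black bars for the medians. Cell cycle and replication points lie mostly below 0 at the treated doses and above it at 0 μM, and the mitochondrial medians of 0.83, 0.91 and 0.67 at the treated doses stand above the 0.12 at 0 μM.

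The other named falls came from several classes of gene. Csrp2, a LIM protein, fell from 41.3, 28.3 and 32.3 CPM to 16.3, 12.6 and 15.8 CPM (log2 fold change -1.17, SE 0.10; edgeR adjusted p = 0.0031), and its 0 μM libraries had 30.3 and 38.8 CPM. Nov, a matricellular protein of the CCN family, went from 45.6, 35.4 and 46.6 CPM to 29.2, 19.6 and 16.1 CPM, and Npr3, the natriuretic peptide clearance receptor, from 97.4, 52.1 and 84.4 CPM to 42.7, 37.6 and 21.9 CPM. Nov was also not called without dose in the model (log2 fold change -0.98). It lost its call without either 200 μM library and Npr3 without either 100 or either 200 μM library, with adjusted p of up to 0.086 and 0.12. Trib3, a pseudokinase induced by the stress factor Atf4, fell from 21.9, 20.7 and 22.2 CPM to 7.39, 11.3 and 13.0 CPM (log2 fold change -1.05, SE 0.16; edgeR adjusted p = 0.019); its call was lost without either 100 μM library or the 200 μM library of day 5, with an adjusted p of up to 0.075.

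Trib3 belonged to 24 endoplasmic reticulum stress genes and Atf4 targets, of which 1 was called lower and 5 were lower on adjusted p: Trib3, Chac1, Slc7a5, Shmt2 and Asns, which act in amino acid supply and its stress response. Over all genes 0.194% were called lower and 1.5% were lower on adjusted p. Calr, a chaperone, was higher by this rule (log2 fold change 0.45, SE 0.09; edgeR adjusted p = 0.039). Gdf15, a stress-induced cytokine, fell from 5.67, 4.45 and 6.29 CPM to 2.96, 1.82 and 2.83 CPM (log2 fold change -1.13, SE 0.19; edgeR adjusted p = 0.023). Of 18 inflammation and chemokine genes 14 had a negative log2 fold change, with a list median of -0.36, and Saa3, an acute phase protein, was called (log2 fold change -1.67, SE 0.26; edgeR adjusted p = 0.019) at a level of 1.2 to 3.66 CPM on day 5, where the 0 μM libraries held 96.7 and 80.9 CPM. Lcn2, lipocalin 2, was lower on adjusted p alone, with a log2 fold change of -0.92 (SE 0.16; edgeR adjusted p = 0.027). Without dose in the model Saa3 was not called (edgeR adjusted p = 0.12). Gdf15 and Saa3 lost their calls without either 200 μM library, with adjusted p of up to 0.17 and 0.16.

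Transcripts of the mitochondrial genome rose together. Of the 13 mitochondrially encoded mRNAs all had a positive log2 fold change, 12 passed on adjusted p and 2, mt-Nd5 and mt-Nd6, reached the fold limit. Over all genes 2.87% were higher on adjusted p. The list, with a median of 0.80, was added after values had been seen. The 13 mRNAs took 4.52, 5.99 and 4.77% of the counts on day 5 and 6.70, 10.62 and 7.47% on day 10, and 4.53% of the counts in each 0 μM library. The 27 nuclear genes of oxidative phosphorylation had a median of 0.01 and none passed on adjusted p. The call of mt-Nd5, at a log2 fold change of 1 (SE 0.13; edgeR adjusted p = 0.013), was lost without any 1 library, with values from 0.90 to 1.14, and that of mt-Nd6 without either 100 μM library or the 200 μM library of day 5, with an adjusted p of up to 0.061. Neither was called without dose in the model (edgeR adjusted p = 0.15 for mt-Nd6 and 0.056 for mt-Nd5). With these 13 genes left out of the counts, 172 genes were called higher and 32 lower. The mitochondrial share moved with the day at every treated dose, and its part in the other results was not tested beyond that count.

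**Figure D4:**
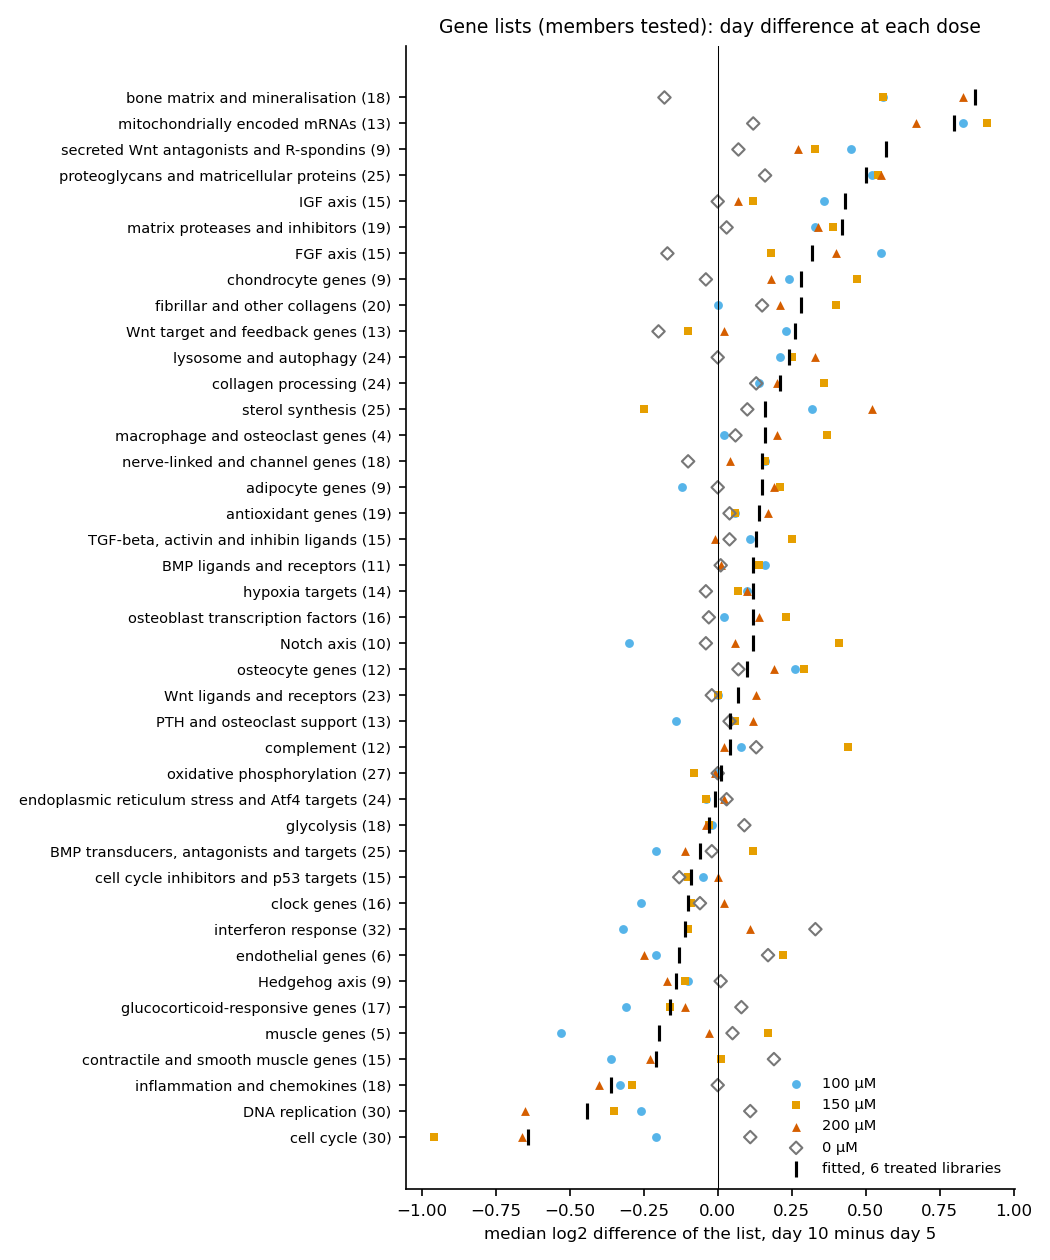
Median log2 difference of day 10 minus day 5 over the tested members of 41 gene lists, with the number of members in brackets; coloured points are the treated doses, open diamonds 0 μM (each 1 pair of libraries) and black bars the median of the fitted log2 fold changes over the 6 treated libraries. Bone matrix and mineralisation has the highest fitted median, 0.87, and cell cycle the lowest, -0.64.

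Of 24 lysosome and autophagy genes 22 had a positive log2 fold change, with a median of 0.24, and 5 passed on adjusted p, among them Ctsk, Ctsh, Neu1 and Ctsa. Over all 16020 genes tested, 7980 had a positive log2 fold change and 2.87% were higher on adjusted p. Ctsk, cathepsin K, which degrades collagen, rose from 140, 156 and 145 CPM to 310, 240 and 275 CPM (log2 fold change 0.90, SE 0.11; edgeR adjusted p = 0.013), and the 0 μM libraries held 69.2 and 71.3 CPM. None of the 25 sterol synthesis genes passed, and their median differences, each from 1 pair of libraries, were 0.32 at 100 μM, -0.25 at 150 μM and 0.52 at 200 μM. Of the 41 lists, 25 had no called member, and 11 of these had none past the adjusted p.

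Whether the day difference in treated cells differed from that at 0 μM was tested over the 8 libraries by the interaction of day and treatment in edgeR. Of 17799 genes tested, 3 had a larger day difference in treated cells (0.0169%) and 3 a smaller one (0.0169%) at the same limits. Of the genes with a symbol called between the days in treated cells, 0 were among them, and their smallest adjusted p in edgeR was 0.055, for Ptgfr. Among the 39 called genes chosen by the naming rule it was 0.065, for Pth1r. At an unadjusted p under 0.05 in edgeR, 111 of the 175 higher and 24 of the 31 lower genes passed, against 1811 of all 17799. The 175 and 31 genes were called on the day difference of the same treated libraries, which enters this test. Their share is therefore not separate evidence. The 0 μM group held 1 library per day, assumed to vary like the treated ones, and DESeq2 called 75 and 50 genes for the same term. A p that misses the threshold does not show that the named genes changed alike in treated and 0 μM cells. Among the genes edgeR called for this term were Gm38431, Ccnb1ip1 and Gm20431 on the larger side and Raver1 and Tmem254a on the smaller side, and in each of these the day difference at 0 μM exceeded 2 on the log2 scale in size.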

How the data were processed

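Poly(A) RNA of MC3T3-E1 cells was sequenced on an Illumina instrument from 1 library per dose and day. The authors deposited raw counts and FPKM (fragments scaled to transcript length and library size) for each gene and library; HISAT2 2.0.4 and GATK 3.2-2 are named in the submitters' processing notes, and the counter, build and annotation are not given in the sources used here. The deposited table also holds the authors' own comparisons and annotations, which were not used.

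The table listed 29583 genes, of which 22036 have Ensembl identifiers and 7547 are newly assembled loci. Day 10 was compared with day 5 over the 6 treated libraries with edgeR 4.0.16 in R 4.3.3 (TMM factors, filterByExpr by day, quasi-likelihood test, dose as a factor), and a call needed an absolute log2 fold change above 1 with a Benjamini-Hochberg adjusted p below 0.05. The interaction with treatment was fitted over 8 libraries with dose, day and treatment by day. The SE is the absolute log2 fold change divided by the square root of F. Differences of the days at 1 dose were taken on log2 CPM (prior count 2). The filter on low counts left 16020 and 17799 genes.

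Genes named in the text were the 12 largest rises and up to 12 largest falls among called symbols averaging 5 CPM or more with 1 direction at all doses, the 3 most changed called members of each list, and the genes the study itself measured; list members past the adjusted p were also given, and some genes that met these rules are not reported here. The comparison, members and lists were chosen with earlier results of these data known, and the mitochondrial list was added later. Positions were taken from GENCODE M21 (GRCm38), which held 22022 of the Ensembl identifiers, and promoter windows from RefSeq, GRCm38.p6. Alternatives used DESeq2 1.42.0, limma 3.58.1 on log2(FPKM + 1), other scalings and filters, and the fit without each library. The main script was tested on simulated data. Count depth limits the precision as given with the libraries, and floors cover counting error only.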

Additional observations from a re-analysis of the deposited data

Results flagged for a closer look

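Among the genes whose day difference in treated cells differed from that at 0 μM in edgeR's interaction test, Raver1 and Gm38431 had counts in all 8 libraries. Raver1 had 84.4, 61.6 and 23.9 CPM on day 5 and 56.7, 60.1 and 23.2 CPM on day 10 at 100, 150 and 200 μM, and 27.4 and 129 CPM at 0 μM. Its day difference in treated cells minus that at 0 μM was -2.45 on the log2 scale (SE 0.24; edgeR adjusted p = 0.029). Gm38431, which overlaps Raver1 on the same strand of chromosome 9, had 12, 13.2 and 72.7 CPM on day 5 and 8.64, 12.3 and 48.9 CPM on day 10, and 114 and 16.3 CPM at 0 μM, and the same difference was 2.42 (SE 0.22; edgeR adjusted p = 0.020). Raver1 was low and Gm38431 high in the same libraries, those at 200 μM and the day 5 library at 0 μM; as the genes overlap, their counts are uncertain. Ccnb1ip1, Gm20431 and Tmem254a were called with 0 counts in 1 or more libraries, Ccnb1ip1 with 1019 counts on day 5 and 0 on day 10 at 0 μM, and their fitted changes are no bound.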

How the results depend on the processing

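The number of genes called between the days moved with the setting, against 175 higher and 31 lower. There were 284 and 81 with every gene of at least 1 count kept, 460 and 241 without the fold limit, 13 and 0 when the fold limit was part of edgeR's test (glmTreat), and 52 and 9 by limma on log2(FPKM + 1); in edgeR 3410 genes had an unadjusted p under 0.05. Lower calls were 50 by DESeq2 and 99 with library totals. Leaving out each library in turn gave 64 to 303 higher and 5 to 99 lower genes. As dose was in the model, each of these fits also took the same-dose partner out of the day difference. The other settings stayed within 1.5 times on both sides, namely DESeq2's size factors (173 and 32), at least 10 counts in every library (160 and 37), a fit of 4 groups (141 and 26), Ensembl genes alone (149 and 31) and, chosen after seeing the data, the mitochondrial genes left out (172 and 32) and libraries thinned to 1 depth (188 and 39).

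For the interaction, with 3 larger and 3 smaller in edgeR and 1811 at an unadjusted p under 0.05, DESeq2 called 75 and 50, and 1 gene was larger with at least 10 counts in every library. Leaving out each treated library in turn gave 10 to 137 larger and 5 to 87 smaller. The 0 μM libraries, 1 per day, were not left out, so this range does not cover them. Without dose as a replicate block, 0 genes were larger and 2 smaller. Deviations of same-dose libraries from their day's mean correlated at 0.12, 0.14 and -0.06 at 100, 150 and 200 μM, so dose was not shown to pair the libraries. Without the dose block 145 genes were higher and 23 lower between the days, of which 136 and 20 were shared with the fit that had it.

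Of the 39 called genes chosen by the naming rule, 20 kept their call without any 1 library, 18 lost it without the 200 μM library of day 5 and 14 without that of day 10. Of 946 values of the 50 genes of that rule that were tested under the alternatives, 824 kept their side of the threshold. In 0 of them did a called gene reverse its direction. A change of direction in a gene that was not called was counted as kept. Totals of 27108562 to 58218009 counts limit genes near 1 CPM, and 1 library per dose and day limits the rest.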

Other observations

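Some further lists had members that passed on adjusted p alone in edgeR, a rule by which 2.87% of all genes were higher and 1.5% lower. Of 17 glucocorticoid-responsive genes 3 were lower on day 10 and 0 higher: the metallothioneins Mt1 and Mt2, which bind metals, with log2 fold changes of -0.51 and -0.60, and the transcription factor Cebpd with -0.86. Of 15 TGF-β, activin and inhibin genes, Tgfb1 was higher (0.70), and Inhba, an activin subunit, was lower (-0.65), as was Gdf15. The small proteoglycans Dcn, decorin, and Fmod, fibromodulin, which coat collagen fibrils, were higher by 0.82 and 0.91.

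None of 32 interferon response genes was called, and their median differences, each from 1 pair of libraries, were -0.32, -0.10 and 0.11 at 100, 150 and 200 μM and 0.33 at 0 μM, where 27 of the 32 were higher on day 10.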
